A study of Homo sapiens with 6 samples.

Results

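The S100 genes encode small calcium-binding proteins, and 10 of them were followed here in RL95-2, an established line of human endometrial carcinoma cells, after exposure to the secretions of mature fat cells. The members were the rows of the count tables whose symbol was S100A2, S100A4, S100A6, S100A8, S100A9, S100A10, S100A11, S100A14, S100A16 or S100P, and all 10 were found among 23228 gene rows. The S100 family has another 11 genes with a row, which are given beside them. The cells were kept without serum for 24 h in either of 2 media. Control cells received RPMI mixed 1:1 with DMEM, and ADP-CM cells received RPMI mixed 1:1 with adipocyte-conditioned medium. That medium was DMEM in which adipocytes isolated from human visceral fat had been cultured, and it was filtered before use. Each group had 3 libraries, numbered 1 to 3, and values of single libraries are given in that order. Both groups are the same cell line, and the labels do not say whether the libraries of a group came from separate cultures or from separate batches of conditioned medium. The p-values therefore measure the spread between these libraries, which may be technical.

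As background, an S100 protein is a dimer whose subunits each hold a pair of EF-hands, the helix-loop-helix motif that grips calcium. Calcium binding opens a greasy surface with which the dimer takes hold of a target protein. S100A8 and S100A9 pair with each other as calprotectin, a protein stored in granulocytes and made by stressed epithelium, and once outside the cell they act as danger signals. Others work inside the cell, on annexins or the cytoskeleton. Most human S100 genes lie together on the long arm of chromosome 1, inside the epidermal differentiation complex, and S100P lies on chromosome 4.

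The libraries held 16262614 to 18363033 reads counted on genes and are compared below as CPM, the counts per library scaled by TMM to a common library size. Reads on no gene made up 10.3% ± 0.0528 of all counts for Control against 11.5% ± 0.0331 for ADP-CM (SD over 3 libraries each). All counts here include those not on a gene, and the part of reads on no gene in the results below was not tested. The epithelial markers that fit the label were present, led by KRT8, with a summed level of 5663 to 5818 CPM in Control and 4965 to 5067 CPM in ADP-CM, while SOX17 had 0 reads in every library. The defining fat cell markers ADIPOQ and LEP had 0 reads in all 6 libraries, which allows up to 0.1845 CPM in the smallest one (3 reads, counting error only). Over the 10 adipocyte markers the summed level was 5.98 to 7.31 CPM in Control and 4.47 to 5.44 CPM in ADP-CM, most of it LIPE. In bulk RNA, a change in how many cells express a gene and a change in the RNA per cell cannot be told apart.

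Of the 10 S100 genes, 2 rose and 4 fell in ADP-CM, all by less than 1.5-fold. S100A2 and S100A8 rose, S100A6, S100A9, S100A10 and S100A11 fell, and S100A4, S100A14 and S100A16 were not past the test. S100P had too few reads to be tested. The median log2 fold change of the 9 tested genes was 0.039, against -0.0023 over all tested genes. A gene passed at an adjusted p under 0.01 in edgeR's quasi-likelihood (QL) test over the 12663 genes with enough reads, with Benjamini-Hochberg (BH) adjustment. At that limit 13.5% of all tested genes were higher and 13% lower (26.5% in all), against 2 and 4 of the 9 tested S100 genes. The test passes smaller changes in genes with more reads. The standard error of the log2 fold change was 0.017 for S100A11 (1227 CPM in Control) and 0.148 for S100A4 (4.25 CPM in Control). The part of read depth in these counts was not tested. DESeq2 called 1 S100 gene higher (S100A2) and 3 lower, against 8.88% and 8.02% of all genes. At the limits the study used, which add a fold change over 1.5, 1.14% of all genes were higher and 1.14% lower (2.27% in all), and 0 of the 9 S100 genes passed by edgeR. None had both an unadjusted p under 0.05 and a fold change over 1.5, and DESeq2 also gave 0. The 3 ADP-CM libraries lay wholly above or wholly below the 3 Control libraries for the 6 S100 genes that passed, and for none of the other 4. Over all tested genes the groups were apart for 45.5%, with ADP-CM above for 22.7% and below for 22.8%. The plot of levels by library shows the same split.

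**Figure D1:**
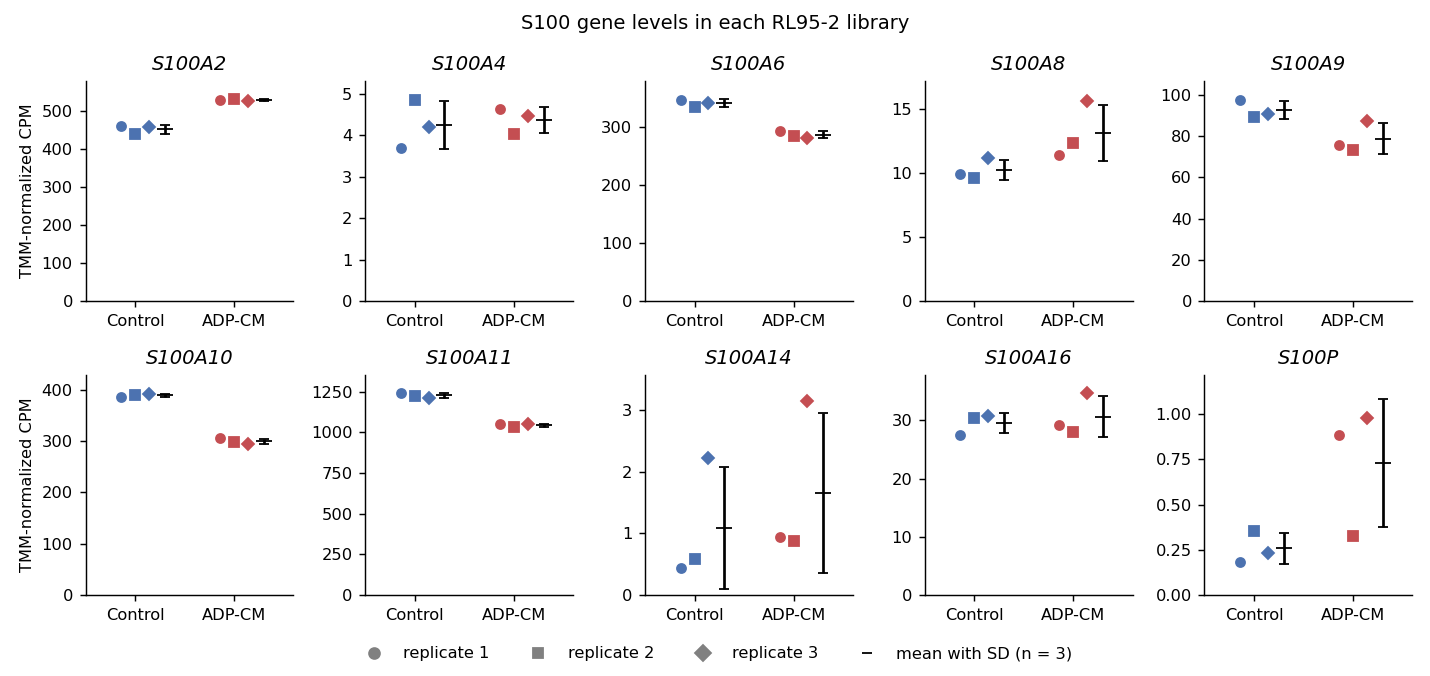
TMM-normalized CPM (vertical axis, starting at 0 in each panel) of the 10 S100 genes in the 3 Control (blue) and 3 ADP-CM (red) libraries of RL95-2 cells, with symbols for replicates 1 to 3 and the mean with its SD (n = 3) in black. S100A2 and S100A8 sit higher in all 3 ADP-CM libraries, S100A6, S100A9, S100A10 and S100A11 sit lower in all 3, and S100A14 is highest in replicate 3 of both groups.

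The S100 genes span more than 3 orders of magnitude in these cells. Levels of different genes were compared as CPM per kilobase of exon, using the joined exons of each gene. In Control cells S100A11 led with 1890 ± 23.2 CPM per kilobase (SD, n = 3), followed by S100A10 at 384 ± 3.28, S100A6 at 352 ± 6.69 and S100A2 at 292 ± 7.87. S100A9 stood at 161 ± 7.65, S100A16 at 17.4 ± 1.05, S100A8 at 11.5 ± 0.908 and S100A4 at 4.50 ± 0.613, and the lowest were S100A14 at 0.847 ± 0.776 and S100P at 0.548 ± 0.186 CPM per kilobase (SD over 3 libraries each). Only the lowest pair, S100A14 and S100P, overlapped between neighbours in this order.

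In ADP-CM cells S100A11 still led, at 1607 ± 14.1 CPM per kilobase (SD, n = 3), but S100A2 stood in place 2, against place 4 in Control, at 342 ± 1.36. S100A6 at 296 ± 6.65 and S100A10 at 295 ± 5.52 CPM per kilobase (SD over 3 libraries each) could not be ordered on joined exons, since their libraries overlapped. S100A16 and S100A8 also overlapped in ADP-CM, at 18.02 ± 2.06 and 14.7 ± 2.46 CPM per kilobase (SD over 3 libraries each), as did S100P and S100A14. These orders depend in part on the length used. With the longest transcript, S100A2 again stood in place 4 in Control and place 2 in ADP-CM, at 462 and 541 CPM per kilobase, and S100A10 stood at 579 in Control. On that length S100A10 (439 to 455) lay above S100A6 (419 to 437) in all ADP-CM libraries, and S100A16 (23.9 to 29.5) above S100A8 (15.9 to 21.8 CPM per kilobase), so neither pair overlapped. The principal GENCODE transcript is shorter still for S100A6 (434 bases, against 673 for the longest) and S100A8 (408, against 717). For S100A2 (977), S100A10 (671) and S100A16 (1172) it is as long as the longest. Levels on principal transcripts were not computed. They would place S100A6 and S100A8 higher against these 3 genes, so the places of S100A6 and S100A8 are not settled.

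**Figure D2:**
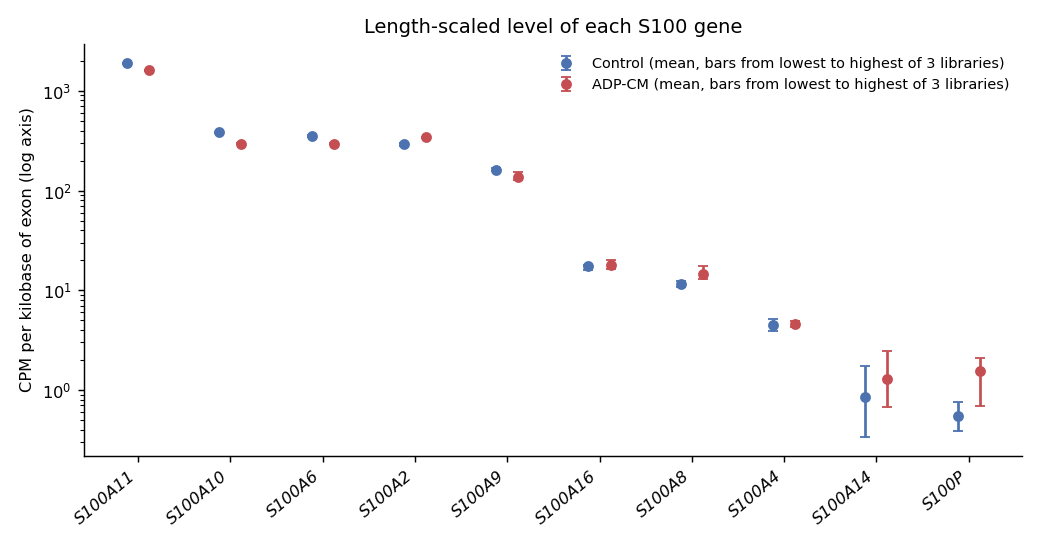
Level of each S100 gene as CPM per kilobase of joined exons (vertical log axis) in Control (blue) and ADP-CM (red), with the mean as a point and bars from the lowest to the highest of 3 libraries. S100A11 leads in both groups, S100A2 passes S100A6 and S100A10 in ADP-CM, and S100A14 and S100P stay near 1 CPM per kilobase.

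Together the 10 genes took 0.254% ± 0.00262 of all gene reads in Control, against 0.229% ± 0.00208 in ADP-CM (SD over 3 libraries each). S100A11 alone made up 48.2% ± 0.482 of the S100 reads in Control, against 45.6% ± 0.0229 in ADP-CM, while the share of S100A2 went from 17.7% ± 0.341 to 23.1% ± 0.279 (SD over 3 libraries each). The summed level fell from 2546 to 2287 CPM. S100A11 fell by 184 CPM, S100A10 by 89.5 CPM and S100A6 by 54.5 CPM, against a rise of S100A2 by 76.6 CPM.

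Transcription factors and the polymerase gather on the promoter, the stretch just before a gene's start. It is shown here for S100A8 and S100A9, which encode partners and passed in opposite directions by edgeR, though neither passed by DESeq2. Also shown are those of S100A2, the most abundant gene that rose, and of S100A10, the one that fell most. Each run is the 250 bases before the start of the gene's principal GENCODE transcript, read 5′ to 3′ on the gene's strand from GRCh37, the assembly behind hg19. The windows are chr1:153363550-153363799 on the minus strand for S100A8, chr1:153330080-153330329 on the plus strand for S100A9, chr1:153538321-153538570 on the minus strand for S100A2 and chr1:151966336-151966585 on the minus strand for S100A10. Capitals mark a TATA box (TATAAA) in S100A8 and S100A9 and an AP-1 type motif (TGANTCA) in S100A2.
S100A8: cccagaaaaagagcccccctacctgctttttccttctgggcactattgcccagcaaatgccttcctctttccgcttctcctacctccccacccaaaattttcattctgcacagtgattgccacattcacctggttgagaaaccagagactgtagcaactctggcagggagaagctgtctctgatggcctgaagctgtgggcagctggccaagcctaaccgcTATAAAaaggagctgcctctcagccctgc
S100A9: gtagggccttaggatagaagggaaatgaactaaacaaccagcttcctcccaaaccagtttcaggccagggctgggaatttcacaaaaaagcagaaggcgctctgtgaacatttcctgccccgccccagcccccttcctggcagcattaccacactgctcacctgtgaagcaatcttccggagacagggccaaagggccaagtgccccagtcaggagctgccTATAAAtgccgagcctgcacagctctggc
S100A2: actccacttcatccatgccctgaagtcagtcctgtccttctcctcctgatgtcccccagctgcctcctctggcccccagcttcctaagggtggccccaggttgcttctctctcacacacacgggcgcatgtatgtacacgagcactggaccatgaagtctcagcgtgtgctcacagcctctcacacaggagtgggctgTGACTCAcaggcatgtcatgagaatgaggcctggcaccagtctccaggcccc
S100A10: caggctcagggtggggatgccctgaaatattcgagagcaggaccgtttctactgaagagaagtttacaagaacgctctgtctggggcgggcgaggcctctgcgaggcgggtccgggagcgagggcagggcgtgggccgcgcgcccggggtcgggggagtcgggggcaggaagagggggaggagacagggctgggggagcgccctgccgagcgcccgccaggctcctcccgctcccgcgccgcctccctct
The TATA box lay 29 to 24 bases before the start in both calprotectin genes. On either strand it was found in 4 of the 10 S100 windows, those of S100A4, S100A8, S100A9 and S100P, against 9.26% of the 19869 protein-coding windows of the same length. The AP-1 type motif was in 1 of 10, S100A2, against 4.70% of all windows. The STAT motif (TTCNNNGAA) was in 0 of 10, against 5.69%, and a C/EBP type motif (TTGCNNAA) in 1 of 10, S100A11, against 7.11%. A loose NF-kB type motif (GGG and CC spaced by any 5 bases) was in 7 of 10, against 65.4% of all windows, and is not marked. A match is a description of the letters only, and a missing one says nothing of a factor's binding.

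S100A8 and S100A9, the subunits of calprotectin, changed in opposite directions. S100A8 (chromosome 1, 153362508 to 153363549) had 161, 163 and 191 reads without conditioned medium (Control) and 207, 226 and 287 with it (ADP-CM). It rose from 10.2 ± 0.809 to 13.1 ± 2.20 CPM (SD over 3 libraries each), and the lowest ADP-CM library (11.4 CPM) lay just above the highest Control library (11.2 CPM). On the log2 scale the difference was 0.36 ± 0.096 (SE, edgeR QL test, BH-adjusted p = 0.00222), a rise of 28.0%. This call rests on single libraries. Without ADP-CM replicate 3 the log2 fold change was 0.21 with an adjusted p of 0.0965 by the same edgeR test, and without Control replicate 1 or Control replicate 2 the adjusted p was 0.0122 and 0.0218. DESeq2 gave an adjusted p of 0.0300, and over all alternatives the adjusted p ran from 0.000523 to 0.0965.

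S100A9 (chromosome 1, 153330330 to 153333499) was the more abundant of the pair, with 1579, 1503 and 1552 reads across Control and 1372, 1340 and 1603 across ADP-CM. Scaled to library size it fell from 92.4 ± 4.39 to 78.7 ± 7.47 CPM (SD over 3 libraries each). ADP-CM replicate 3, at 87.2 CPM, came close to the lowest Control library, at 89.0 CPM, and the other ADP-CM libraries were at 75.8 and 73.1 CPM. On the log2 scale the difference was -0.23 ± 0.041 (SE, edgeR QL test, BH-adjusted p = 5.75e-06), and it was past the limit without each library in turn, though not with DESeq2 (adjusted p = 0.0314).

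The balance of the calprotectin transcripts was also taken within each library. For every 100 reads of S100A9 there were 10.2, 10.8 and 12.3 reads of S100A8 across Control and 15.1, 16.9 and 17.9 across ADP-CM, so the groups did not overlap. This ratio does not depend on library size. The mean log2 ratio went from -3.17 ± 0.138 to -2.59 ± 0.125 (SD over 3 libraries each), a difference of 0.58 (two-sided exact permutation test, p = 0.1, also 0.1 after BH adjustment over 2 ratios). With 3 libraries against 3, 0.1 is the smallest p this test can give. Leaving out each library in turn gave differences of 0.52 to 0.66.

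Calprotectin is best known from granulocytes and monocytes, so markers of these cells were counted beside it. FCGR3B, MPO, ELANE, FCN1 and S100A12 had 0 reads in every library, and 9 of the 12 myeloid markers never exceeded 3 reads in a library. The summed level of the list was 2.67 to 3.51 CPM in Control and 2.18 to 2.60 CPM in ADP-CM, most of it CYBB and ITGAM, and 0 of the 2 tested markers passed (edgeR, 1 lower at an unadjusted p under 0.05, 0 by DESeq2). Of the cell surface receptors that calprotectin can bind, TLR4 had 0 reads in every library. AGER, the gene of the receptor RAGE, was at 2.57 ± 0.476 CPM in Control and 3.14 ± 0.327 CPM in ADP-CM (SD over 3 libraries each) and was not past the test (edgeR QL test, BH-adjusted p = 0.222). BSG, a surface glycoprotein that S100A9 binds, fell by 0.15 on the log2 scale, from 506 ± 3.49 to 457 ± 10.7 CPM (SD over 3 libraries each, edgeR adjusted p = 2.91e-08). ALCAM, a cell adhesion protein on the same list, rose by 0.14 on that scale, from 87.8 ± 1.56 to 96.9 ± 2.53 CPM (SD over 3 libraries each, edgeR adjusted p = 0.000691).

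**Figure D3:**
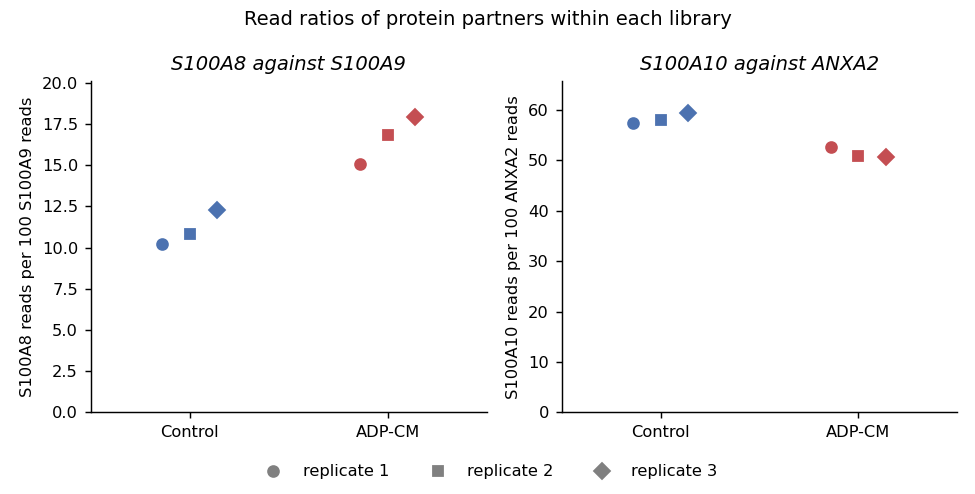
Reads of S100A8 per 100 reads of S100A9 (left) and of S100A10 per 100 reads of ANXA2 (right) in each library, with symbols for replicates 1 to 3 and vertical axes that start at 0. The S100A8 ratio is 10.2 to 12.3 in Control and 15.1 to 17.9 in ADP-CM, and the S100A10 ratio is 57.4 to 59.3 in Control and 50.7 to 52.6 in ADP-CM.

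All 3 S100 genes described here as annexin partners, S100A10, S100A11 and S100A6, fell, S100A10 by the most. S100A10 cannot bind calcium and sits instead in a stable complex with annexin A2 at the inner face of the plasma membrane, where it helps capture plasminogen. S100A10 (chromosome 1, 151955391 to 151966335) had 6249, 6564 and 6700 reads without conditioned medium (Control) and 5528, 5447 and 5421 with it (ADP-CM). It went from 389 ± 3.32 to 299 ± 5.58 CPM (SD over 3 libraries each), and the highest ADP-CM library (305 CPM) lay well below the lowest Control library (385 CPM). On the log2 scale the difference was -0.38 ± 0.022 (SE, edgeR QL test, BH-adjusted p = 1.66e-22), a fall by 23.0%. Its values under all 14 alternatives stayed past the limit, with log2 fold changes of -0.39 to -0.36.

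ANXA2, the gene of annexin A2, fell less, from 668 ± 6.33 to 582 ± 1.84 CPM (SD over 3 libraries each), or -0.20 on the log2 scale (edgeR QL test, BH-adjusted p = 2.38e-13). For every 100 reads of ANXA2 there were 57.4, 57.9 and 59.3 reads of S100A10 across Control and 52.6, 50.8 and 50.7 across ADP-CM. The groups did not overlap, and the mean log2 ratio differed by -0.18 (two-sided exact permutation test, p = 0.1, the smallest possible). Reads of ANXA2 are uncertain because its processed copy ANXA2P2 held 11287 to 11918 reads per library, against 10516 to 11331 on ANXA2. Against the sum of ANXA2 and its 3 copies the log2 ratio still differed by -0.21. AHNAK, a giant scaffold protein that the S100A10 and annexin A2 complex binds, went the other way, from 326 ± 10.8 to 396 ± 1.61 CPM (SD over 3 libraries each), or 0.28 on the log2 scale (edgeR adjusted p = 1.99e-16). PLAT, the tissue plasminogen activator, had a log2 fold change of -0.16 and did not pass (edgeR adjusted p = 0.0297). PLAU, the urokinase plasminogen activator, was far more abundant and rose from 737 ± 1.62 to 778 ± 13.2 CPM (SD over 3 libraries each), or 0.077 on the log2 scale (edgeR adjusted p = 0.000695), though an opposite-strand gene covers 31.0% of its exon bases.

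S100A11, which binds annexin A1, was the most abundant S100 gene. S100A11 (chromosome 1, 152004982 to 152020383) had 20156, 20688 and 20732 reads without conditioned medium (Control) and 18980, 18931 and 19277 with it (ADP-CM). It fell from 1227 ± 15.1 to 1043 ± 9.18 CPM (SD over 3 libraries each), with no overlap. On the log2 scale the difference was -0.23 ± 0.017 (SE, edgeR QL test, BH-adjusted p = 5.48e-18). ANXA1 did not pass the test, at 736 ± 10.0 CPM in Control and 726 ± 17.1 CPM in ADP-CM (SD over 3 libraries each), with a 95% interval of the log2 fold change from -0.058 to 0.019 (edgeR adjusted p = 0.458).

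S100A6, also called calcyclin, is made by dividing cells and binds annexin A11 and the ubiquitin ligase adaptor encoded by CACYBP. S100A6 (chromosome 1, 153507075 to 153508720) had 5643, 5655 and 5857 reads without conditioned medium (Control) and 5328, 5238 and 5181 with it (ADP-CM). After scaling it fell from 342 ± 6.50 to 287 ± 6.45 CPM (SD over 3 libraries each), or -0.25 ± 0.023 on the log2 scale (SE, edgeR QL test, BH-adjusted p = 5.14e-14). The groups did not overlap. A gene known only by its identifier on the opposite strand covers 3.81% of the exon bases of S100A6, and no other of the 10 genes shares exon bases with another annotated gene. ANXA11 fell by 0.14 on the log2 scale (edgeR adjusted p = 3.67e-05), and CACYBP was not past the test (log2 fold change 0.049, edgeR adjusted p = 0.209).

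Among the S100 genes tied to epithelial identity, S100A2 rose and S100A14 and S100A16 gave no call. S100A2 is found in the basal layer of stratified epithelia. S100A2 (chromosome 1, 153533584 to 153540366) had 7444, 7388 and 7838 reads without conditioned medium (Control) and 9565, 9724 and 9676 with it (ADP-CM). It rose from 452 ± 12.2 to 528 ± 2.10 CPM (SD over 3 libraries each), and the lowest ADP-CM library (526 CPM) stood above the highest Control library (459 CPM). On the log2 scale the difference was 0.23 ± 0.021 (SE, edgeR QL test, BH-adjusted p = 3.66e-14), a rise of 17.0%. Over 14 alternatives it ran from 0.20 to 0.24 and stayed past the limit.

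Of the 7 tested basal or squamous markers, 0 were higher and 4 lower (edgeR QL test, BH-adjusted p under 0.01), and the counts were the same at an unadjusted p under 0.05 and by DESeq2. The 4 were KRT5, KRT13, KRT16 and IVL, each past a fold change of 1.5, with log2 fold changes of -1.50, -1.29, -0.87 and -0.84. By the same edgeR test 13.5% of all tested genes were higher and 13% lower, and 1.14% were lower past a fold change of 1.5. The summed level of the 8 listed markers was 719 to 736 CPM in Control and 384 to 402 CPM in ADP-CM, and TP63, the master regulator of basal epithelium, was at 177 and 174 CPM. The part of these levels in the rise of S100A2 was not tested.

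S100A14, which encodes an S100 protein of epithelia, had few reads and depended on the libraries numbered 3. S100A14 (chromosome 1, 153586731 to 153589462) had 7, 10 and 38 reads without conditioned medium (Control) and 17, 16 and 58 with it (ADP-CM). Library 3 was 4.34-fold above the mean of the others in Control and 3.48-fold above in ADP-CM. The log2 fold change was 0.60, with a 95% interval from -0.10 to 1.30 (edgeR QL test, BH-adjusted p = 0.182). It was -0.27 without ADP-CM replicate 3 and 1.68 without Control replicate 3, where the edgeR adjusted p was 0.00306. Without both libraries numbered 3, an alternative added after these reads were seen, it was 0.81 with an edgeR adjusted p of 0.157.

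S100A16, a broadly made S100 protein that has been linked to fat cell differentiation, had 446, 513 and 526 reads without conditioned medium (Control) and 530, 514 and 637 with it (ADP-CM). S100A16 (chromosome 1, 153579362 to 153585621) was at 29.5 ± 1.79 and 30.6 ± 3.51 CPM (SD over 3 libraries each), and the groups overlapped. Its log2 fold change was 0.052, with a 95% interval from -0.071 to 0.175 (edgeR QL test, BH-adjusted p = 0.545). Library 3 was again the highest in both groups, by 1.06-fold and 1.21-fold over the mean of the others. Replicate 3 was the highest Control library for 4 of the 10 S100 genes and the highest ADP-CM library for 5, with S100A8, S100A14 and S100A16 in both counts. The same count over all tested genes was not made, so this is not shown to be particular to the S100 genes.

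Of the S100 genes linked to cell movement, S100A4 gave no call and S100P had too few reads to be tested. S100A4, which binds the heavy chain of non-muscle myosin and marks mesenchymal cells, had 60, 82 and 72 reads without conditioned medium (Control) and 84, 74 and 82 with it (ADP-CM). S100A4 (chromosome 1, 153516089 to 153522612) was at 4.25 ± 0.580 and 4.38 ± 0.310 CPM (SD over 3 libraries each), with overlapping groups and a 95% interval of the log2 fold change from -0.26 to 0.34 (edgeR QL test, BH-adjusted p = 0.866). At this depth the reads are compatible with any change within that interval. VIM, another mesenchymal marker, had 3, 4 and 3 reads in Control against 12, 6 and 14 in ADP-CM and was too low to be tested. Its groups did not overlap, as for 45.5% of all tested genes. Of the 8 stromal markers 2 were tested, with 1 higher (COL1A1) and 0 lower (edgeR QL test, BH-adjusted p under 0.01), against 13.5% and 13% of all tested genes. COL3A1 did not pass (log2 fold change -0.010), and LUM, not tested, had 3, 3 and 6 reads in Control against 4, 1 and 3 in ADP-CM. The summed level of the 8 stromal markers was 61.7 to 68.6 CPM in Control and 79.1 to 79.6 CPM in ADP-CM, nearly all of it COL1A1, and its part in the values of S100A4 was not tested. MYH9, which encodes that myosin chain, fell from 1369 ± 24.5 to 1253 ± 23.8 CPM (SD over 3 libraries each), or -0.13 on the log2 scale (edgeR adjusted p = 1.52e-08).

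S100P (chromosome 4, 6695605 to 6698897), a protein first found in placenta that activates ezrin, had 3, 6 and 4 reads without conditioned medium (Control) and 16, 6 and 18 with it (ADP-CM). ADP-CM replicate 2 matched Control replicate 2, so the groups overlapped, and the gene did not reach the read limit of the test. Fitted without a limit on low counts, S100P had a log2 fold change of 1.47 (edgeR QL test, BH-adjusted p = 0.0114), which became 1.82 with an adjusted p of 0.00192 without ADP-CM replicate 2. EZR, the gene of ezrin, fell by 0.14 on the log2 scale (edgeR adjusted p = 7.58e-08), and S100PBP, which encodes an S100P-binding protein, was not past the test (log2 fold change 0.094, edgeR adjusted p = 0.138).

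The other 11 S100 genes were mostly silent. S100A7L2, S100A12, S100B, S100G and S100Z had 0 reads in every library, S100A5 and S100A7A had at most 2 reads in a library, and S100A1 at most 5. Of the 3 that were tested, 0 were higher and 1 lower by edgeR (1 higher and 1 lower at an unadjusted p under 0.05, 0 and 0 by DESeq2). Over all tested genes 13.5% were higher and 13% lower by edgeR, and 8.88% and 8.02% by DESeq2, so 1 of 3 cannot be told from these shares. S100A13 fell by 0.16 on the log2 scale, from 46.0 ± 2.77 to 41.2 ± 0.715 CPM (SD over 3 libraries each, edgeR adjusted p = 0.00855), but it shares 24.2% of its exon bases with a gene on its own strand and 10.6% with S100A1 on the other. Its call held in 1 of 6 fits with a library left out (without Control replicate 2), with edgeR adjusted p up to 0.0720. S100A7, or psoriasin, had 4, 9 and 10 reads without conditioned medium (Control) and 15, 15 and 25 with it (ADP-CM). Those groups did not overlap, and its log2 fold change of 1.12 missed the limit (edgeR QL test, BH-adjusted p = 0.0129). S100A3 was at 2.81 and 2.79 CPM.

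**Figure D4:**
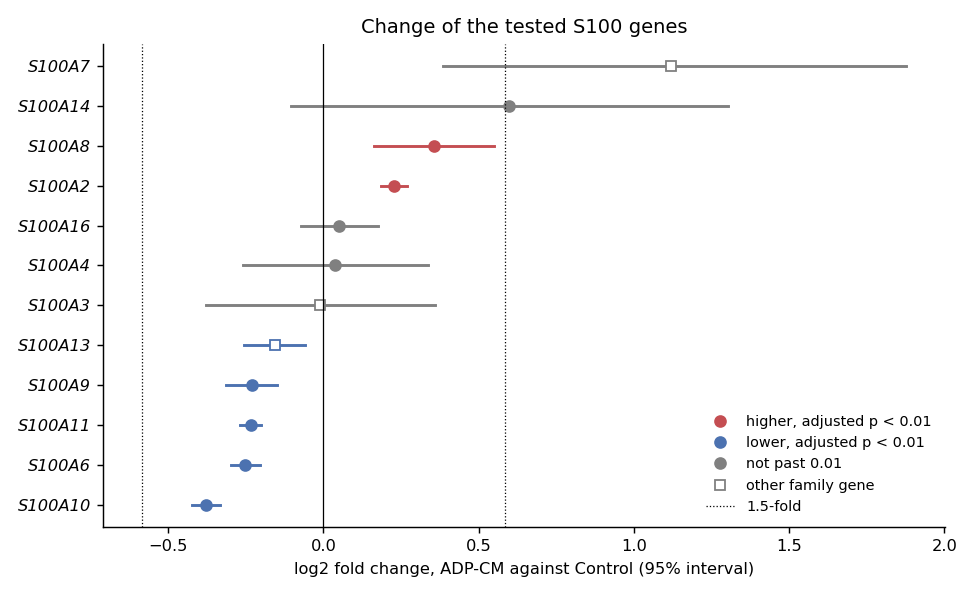
Log2 fold change of ADP-CM against Control (horizontal axis) with its 95% interval from edgeR for the 12 S100 genes that were tested. Circles are members of the set of 10, open squares other family genes, red and blue mark an adjusted p under 0.01, and dotted lines mark 1.5-fold. The 4 abundant genes S100A2, S100A6, S100A10 and S100A11 have narrow intervals clear of 0, and those of S100A7 and S100A14 are wide.

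Of the 28 listed partners and receptors of S100 proteins, 25 were tested, with 6 higher and 5 lower (edgeR QL test, BH-adjusted p under 0.01) and a median log2 fold change of -0.019. These are 24% and 20% of the list, against 13.5% and 13% of all tested genes, whose median was -0.0023. The part of read depth in this difference was not tested. None of the 25 was past a fold change of 1.5, with 1 past it at an unadjusted p under 0.05 (CYBB, chosen after its values were seen) and 0 by DESeq2. Among the 11 that passed, the highest log2 fold changes were those of CD68 (0.53), ANXA6 (0.28) and AHNAK (0.28), and the lowest those of ANXA2 (-0.20), BSG (-0.15) and EZR (-0.14). CD68, a lysosomal protein of macrophages and many other cells, had 115 to 136 reads in Control and 176 to 214 reads in ADP-CM, but shares 81.6% of its exon bases with a gene on the same strand. EGFR also rose, by 0.18 on the log2 scale (edgeR adjusted p = 1.71e-09), and ERBB2 was not past the test (log2 fold change -0.022).

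The size of these changes held under most settings for the abundant genes. Over 14 alternatives each, S100A2, S100A6, S100A10 and S100A11 passed in 14, S100A9 in 13 and S100A8 in 9. S100A4 and S100A16 passed in 0 of 14, and S100A14 in 1 of 13.

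**Figure D5:**
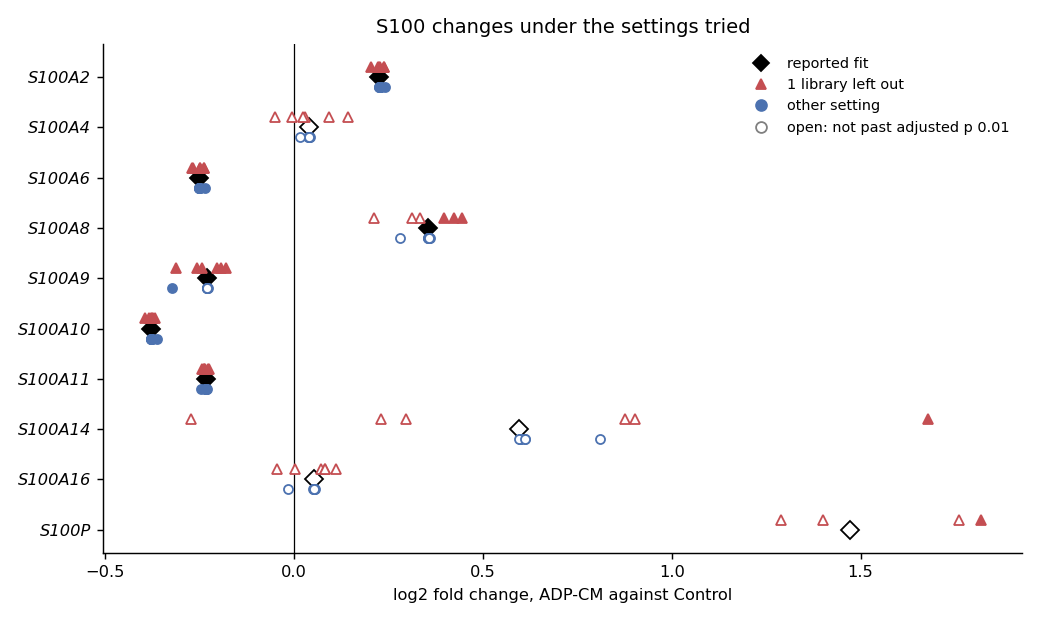
Log2 fold change of ADP-CM against Control (horizontal axis) for the 10 S100 genes in the reported fit (black diamond), with 1 library left out (red triangles) and under the other settings tried (blue circles), where open symbols are not past an adjusted p of 0.01 and the diamond of S100P is the fit with no limit on low counts. The symbols of S100A2, S100A6, S100A10 and S100A11 lie close together, and those of S100A14 spread from -0.27 to 1.68.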

How the data were processed

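RNA of RL95-2 cells was sequenced as stranded poly(A) libraries with 50 bp single reads, 3 Control and 3 ADP-CM. Per the labels and the methods, the authors aligned reads to hg19 with TopHat2, used HTSeq with the RefSeq gene models, and raw counts were deposited, 1 value a gene. The versions and the strand setting are not given in the sources used here. HTSeq drops reads with several alignments, which lowers the counts of genes that have near-identical copies. Lines that name no gene were kept out of library sizes. As shares of all counts, with those lines included, reads on no gene were 10.3% and 11.5% in Control and ADP-CM. Ambiguous reads were 0.719% and 0.714%, and reads aligned to several places 20.5% and 20.7%.

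Every replicate pair differed by more than sampling noise in a chi-square comparison, with a chi-square per degree of freedom of 1.23 to 2.05. That comparison cannot tell separate cultures from separate library preparations of the same RNA. All 6 samples were kept. In R 4.3.3, edgeR 4.0.16 was used with TMM, filterByExpr defaults (12663 of 23228 genes kept), the quasi-likelihood test and Benjamini-Hochberg adjustment, at an adjusted p under 0.01. Standard errors are the fitted coefficient over the square root of F. Alternatives were DESeq2's size factors, plain library sizes, DESeq2 1.42.0, no filter or 10 counts in every library, a robust fit, the replicate number as a term, an adjusted p of 0.05, and each library left out. Leaving out both libraries numbered 3 was added later. The floor of 3 reads covers counting error only.

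The fits were tested on simulated data with 100 genes changed by 1 and 100 by 0.585 on the log2 scale. At an adjusted p under 0.01 edgeR recovered 93 and 85 of them and DESeq2 86 and 81, with 0 false calls each. The simulation gave every gene the same variation between libraries (coefficient 1.67%). It therefore does not cover library differences such as those of S100A14. Positions and exon lengths are from GENCODE 44 on GRCh37. All 10 members are described. From the other lists the genes tied to a member by name, and otherwise the 3 largest rises and falls past the limit, are named, and some listed genes are not reported here. The members and lists were chosen with earlier results of these data known, so no test over a list was made.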

Additional observations from a re-analysis of the deposited data

How the results depend on the processing

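Of 129 values of single S100 genes under an alternative, 116 kept their direction and their side of the limit, 6 lost the call (5 of S100A8 and 1 of S100A9), 2 gained one and 5 changed sign. The sign changes were those of S100A4 without Control replicate 1 and without ADP-CM replicate 1 (-0.0050), of S100A14 without ADP-CM replicate 3, and of S100A16 without ADP-CM replicate 3 and without both libraries numbered 3 (-0.015), none of them past the limit. Without single libraries the log2 fold change ran from -0.050 to 0.14 for S100A4, from -0.27 to 1.68 for S100A14 and from -0.046 to 0.11 for S100A16. The count of S100 genes that rose was 1 in place of 2 with DESeq2 and without both libraries numbered 3, and 1 to 3 without single libraries, while the count that fell was 4 without each library in turn and 3 with DESeq2. Past a fold change of 1.5 it was 0 to 1 without single libraries (S100A14 without Control replicate 3, S100P without ADP-CM replicate 2). Of the epidermal differentiation complex genes 1 in place of 2 fell with DESeq2, and 1 to 3 without single libraries (3 without ADP-CM replicate 3, where SPRR1B passed). Over all genes DESeq2 called 1124 higher and 1015 lower, against 1707 and 1650, and 95 higher past a fold change of 1.5, against 144. The cause was not tested. With the replicate number as a block, 2 S100 genes rose and 4 fell, as without it, and 1786 and 1716 of all genes passed. The numbers do not mark a stated pairing: same-numbered libraries deviated together with correlations of 0.073, 0.014 and 0.097, and 5 of 6 libraries correlated best with their own number. Depth limits S100A14 and S100P, with at most 58 and 18 reads in any library.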

Other observations

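Other genes listed for the epidermal differentiation complex were mostly silent in RL95-2 cells, and the 2 that passed were lower. Those with a position lie between S100A11 and S100A9 on chromosome 1, except THEM4 and THEM5, which lie outside the outermost S100 genes. Of 41 listed genes 23 had 0 reads in every library and 4 were tested, with 0 higher and 2 lower in ADP-CM (edgeR QL test, BH-adjusted p under 0.01, 0 and 3 at an unadjusted p under 0.05, 0 and 1 by DESeq2). By the same edgeR test 13.5% of all tested genes were higher and 13% lower, and 4 tested genes are too few to set against these shares. IVL, which encodes involucrin of the cornified envelope, fell from 26.3 ± 0.783 to 14.7 ± 0.202 CPM (SD over 3 libraries each), or -0.84 on the log2 scale (edgeR adjusted p = 1.13e-16). SPRR3, another envelope precursor, had 25, 46 and 46 reads without conditioned medium (Control) and 15, 29 and 27 with it (ADP-CM), which overlap (log2 fold change -0.84, edgeR adjusted p = 0.00408). Leaving out either of Control replicates 2 and 3, or the first ADP-CM library, ended that call, with edgeR adjusted p up to 0.0645. Of the genes that fuse an S100 domain to a long repeat, TCHHL1 fell from 2.43 ± 0.340 to 1.06 ± 0.150 CPM (SD over 3 libraries each, log2 change -1.19, edgeR adjusted p = 3.6e-05), TCHH was not past the test, and FLG, FLG2, HRNR, RPTN and CRNN had 0 reads.

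Among 28 tested EF-hand calcium sensors outside the S100 family, 5 were higher and 11 lower (edgeR QL test, BH-adjusted p under 0.01, 6 and 14 at an unadjusted p under 0.05, 3 and 11 by DESeq2), and the median of their log2 fold changes was -0.095. By edgeR these are 17.9% and 39.3%, against 13.5% and 13% of all tested genes, whose median was -0.0023. The test passes smaller changes in genes with more reads. CALU and CALM2, at 575 and 859 CPM in Control, passed at log2 fold changes of -0.084 and -0.091. The part of read depth in these counts was not tested. CIB1 lost its rise with DESeq2 (adjusted p = 0.0145) and without ADP-CM replicate 1 (edgeR adjusted p = 0.0303). SRI lost its rise with DESeq2 (adjusted p = 0.0338) and without Control replicate 1, Control replicate 2, ADP-CM replicate 1 or ADP-CM replicate 3 (edgeR adjusted p up to 0.0475). Among the genes that passed, the 3 largest rises were those of RCN3 (0.44), a calcium-binding protein of the endoplasmic reticulum, EFHD2 (0.27) and CAPN2 (0.21), the catalytic subunit of m-calpain. The 3 largest falls that passed were those of CETN2 (-0.28), a centriole protein, CAPN1 (-0.27), the catalytic subunit of mu-calpain, and RCN2 (-0.18). CAPN1 fell from 490 ± 7.19 to 405 ± 10.4 CPM and CAPN2 rose from 509 ± 0.837 to 589 ± 2.97 CPM (SD over 3 libraries each), while CAPNS1, their shared small subunit, was not past the test (log2 fold change 0.030, edgeR adjusted p = 0.312).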
